A study of Mus musculus with 3 samples.

Results

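Processed pseudogenes are DNA copies of spliced messenger RNAs that were reinserted into the genome. Most lack introns and a promoter of their own, and young copies are nearly identical in sequence to the gene they came from. Genes with abundant messenger RNA in many tissues, above all those of ribosomal proteins, have left many such copies in the mouse genome. A sequencing read from the coding gene can therefore match its copies equally well, and the software that assigns reads has to divide them.

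The 108 pseudogenes described here were chosen by their measured level, as all genes whose every transcript is typed as a processed pseudogene and whose mean level was 2 TPM or more. TPM is a read count divided by the effective transcript length and scaled to 1000000 over each library. They were 108 of 9940 processed pseudogenes and of 55536 annotated genes in the tables. Since the level chose them, their levels and the comparison of their levels between quantifications are given as a description, with no test.

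The series holds 1 group of 3 biological replicates and no untreated cells. It is total RNA, depleted of ribosomal RNA, from the cytosolic fraction of C57BL/6J bone marrow-derived macrophages taken 10 minutes after 100 ng/ml Lipid A, the part of bacterial lipopolysaccharide that TLR4 recognises. All 3 libraries carry 1 donor identifier, and nothing in the labels says that they came from separate animals or cultures, so p-values measure the spread between these samples only, which may be technical. Sex and age were not collected. The gene tables hold 33825547, 54667365 and 43176007 expected counts over annotated genes in replicates 1, 2 and 3. All 7 macrophage markers, Csf1r and Adgre1 among them, were at 1 TPM or more in every replicate, with a summed level of 6452 to 7360 TPM. No T cell, B cell, erythroid or stromal marker reached 1 TPM in every replicate, while 1 of 4 neutrophil markers did, with a summed level of 8.69 to 14.3 TPM over the list.

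The copies at issue can be seen in their letters. The first 2 below are whole pseudogenes that equal the coding sequence of a ribosomal protein or respiratory chain gene from start to stop codon, shown because they are among the 6 highest members by deposited level. They were read from the M21 transcripts, strand as annotated, and capitals mark the start and stop codon. Gm10443 lies at chr6:86334031-86334240 on the plus strand of mm10 and equals the coding sequence of Rps28. Gm12338 lies at chr11:75599763-75599954 on the minus strand and equals that of Cox7c.
Gm10443: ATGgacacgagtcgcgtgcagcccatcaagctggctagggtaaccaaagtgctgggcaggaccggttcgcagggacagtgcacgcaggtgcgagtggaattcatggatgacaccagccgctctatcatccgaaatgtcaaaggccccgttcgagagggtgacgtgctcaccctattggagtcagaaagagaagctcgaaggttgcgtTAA
Gm12338: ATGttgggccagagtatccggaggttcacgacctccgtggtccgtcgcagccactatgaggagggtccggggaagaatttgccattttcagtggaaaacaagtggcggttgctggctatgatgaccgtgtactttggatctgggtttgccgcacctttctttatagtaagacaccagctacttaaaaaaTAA

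Other members differ from the coding gene at few or at many bases. Morf4l1-ps1 differs from Morf4l1, which encodes a chromodomain protein, at 2 bases over 969. A window of 90 bases, chr16:24529867-24529956 on the plus strand, holds 1 of these differences, in capitals. The same stretch of the Morf4l1 coding sequence spans an intron within chr9:90095187-90096569 on the minus strand.
Morf4l1-ps1: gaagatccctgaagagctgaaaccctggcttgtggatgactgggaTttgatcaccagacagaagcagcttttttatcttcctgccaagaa
Morf4l1: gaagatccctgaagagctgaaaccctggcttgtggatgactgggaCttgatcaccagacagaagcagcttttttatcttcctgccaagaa

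Gm6548 is a copy of Eef1a1, the elongation factor that brings aminoacyl-tRNA to the ribosome, with 36 differing bases and 3 gaps over the aligned stretch. A window of 90 bases without a gap, chr17:78850853-78850942 on the minus strand, holds 6 of the differing bases, in capitals. The same stretch of the Eef1a1 coding sequence spans an intron within chr9:78478798-78478986 on the minus strand.
Gm6548: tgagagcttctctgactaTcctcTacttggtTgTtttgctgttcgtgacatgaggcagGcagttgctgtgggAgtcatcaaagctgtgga
Eef1a1: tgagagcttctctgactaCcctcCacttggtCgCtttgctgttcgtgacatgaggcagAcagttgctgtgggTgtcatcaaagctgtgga

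Over all members, 106 of 108 had a closest protein-coding transcript, with a median identity of 99.8% and a lowest of 94.1%. Of these, 47 were identical to it over their whole length and are called exact copies below, and another 31 differed from it by 1 to 3 bases with no gap. The aligned stretch lay wholly inside the coding sequence for 92 members and equalled it for 45. A median of 0.0846% of a member's 31-base words occurred in no other annotated gene, and 54 members had no such word. At the other end, Gm12250 and Gm17147 shared no 31-base word with any other gene. Of the 108 members, 107 have a single exon, 29 lie in an intron of a protein-coding gene, 5 overlap an exon of another gene on the same strand and 5 on the other strand, and reads of overlapping genes may not be separable. The 2 members Gm17084 and Gm43802 overlap the locus of their own closest coding gene, Ripk1 and Gbp7, on the same strand. Gm17084 is counted among the 47 exact copies, and its identity to Ripk1 may be that of the DNA both share. Exact copies were counted without leaving out such overlaps.

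Exact copies were more common among pseudogenes listed at a higher level. They made up 43.5% of the members (47 of 108), 12.5% of pseudogenes from 0.5 to under 2 TPM (17 of 136), 1.38% of those above 0 and under 0.5 TPM (24 of 1733) and 0.364% of those at 0 (29 of 7963). Seen the other way, 40.2% of the 117 exact copies were members, against 0.621% of the other processed pseudogenes. The median level of the closest coding gene was 143 TPM for members, 33.5 TPM for pseudogenes from 0.5 to under 2 TPM, 41.4 TPM for those above 0 and under 0.5 TPM, and 21.4 TPM for those at 0. It was highest for members and did not fall steadily across the lower classes. Among exact copies whose coding gene reached 100 TPM, 21 of 31 were members. Because the members were chosen by level, these shares carry no test, and the part of the coding gene's level in them was not tested.

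**Figure D1:**
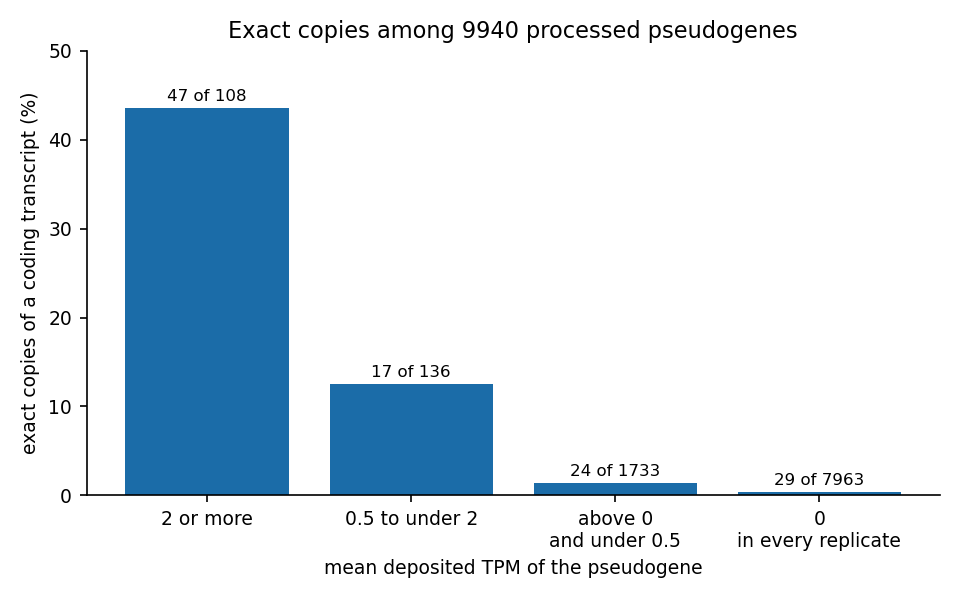
Share of processed pseudogenes that are identical over their whole length to a protein-coding transcript (vertical axis, percent) by class of mean deposited TPM over 3 replicates (horizontal axis), with the number of exact copies and of pseudogenes above each bar. The share was 43.5% at 2 TPM or more, on the left, and 0.364% at 0 TPM, on the right.

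The members together were listed at 2282, 1695 and 1780 TPM in replicates 1, 2 and 3, which was 88.0%, 87.6% and 88.2% of the TPM of all processed pseudogenes. They took 0.0804%, 0.0700% and 0.0679% of the expected counts. The 12 highest members held 66.4% ± 3.5 of the members' TPM (SD, n = 3). Just inside the limit stood Gm10705 at 2.10 TPM, Gm10146 at 2.06, Gm14822 at 2.05 and Gm38317 at 2.02, and just outside it Gm6768 at 1.99 TPM, Gm4617 at 1.98, Gm43587 at 1.96 and Gm21370 at 1.94.

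Gm10443, the copy of the small-subunit gene Rps28, was listed highest, at 203, 167 and 160 TPM in replicates 1, 2 and 3. This rank rests on 192, 432 and 268 expected counts over short effective lengths of 14.1, 25.3 and 22.1 bases. Rpl31-ps8, a copy of the large-subunit gene Rpl31, followed at 182, 142 and 131 TPM. Tpt1-ps3, a copy of the gene for the translationally controlled tumour protein, was listed at 199, 105 and 110 TPM. All 3 were highest in replicate 1, and Tpt1-ps3 stood there well above its other two values. Gm7536 (Rpl27a) was listed at 173, 108 and 117 TPM and Rps23-ps1 (Rps23) at 130, 127 and 130 TPM. Gm12338, the copy of the cytochrome c oxidase subunit gene Cox7c, was listed at 117, 111 and 155 TPM. Its values also rest on short effective lengths, 8.69, 16.5 and 14.3 bases, with 67.8, 187 and 168 expected counts. These 6 differ in how even they are, with Rps23-ps1 nearly level across replicates. Rps23-ps1 overlaps an exon of Gm5148 on the other strand, and without knowledge of strand in the counting their reads cannot be told apart.

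Gm11518 and Rpl27-ps3 carry the same sequence, a copy of Rpl27, and were listed with the same values, 76.8, 72.3 and 76.5 TPM. The authors' interval for replicate 1 ran from 39.7 to 148 TPM for Gm11518 and from 2.46 to 109 TPM for Rpl27-ps3. All their 31-base words also occur in Rpl27. Over all members, the upper bound of the authors' interval was at least 2 times the lower in every replicate for 35 of 108, where 1.85% of all genes at 2 TPM or more had so wide an interval. The median posterior standard deviation, which states how uncertainly reads were divided, was 9.07% of the count for members and 0% for protein-coding genes at 2 TPM or more.

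**Figure D2:**
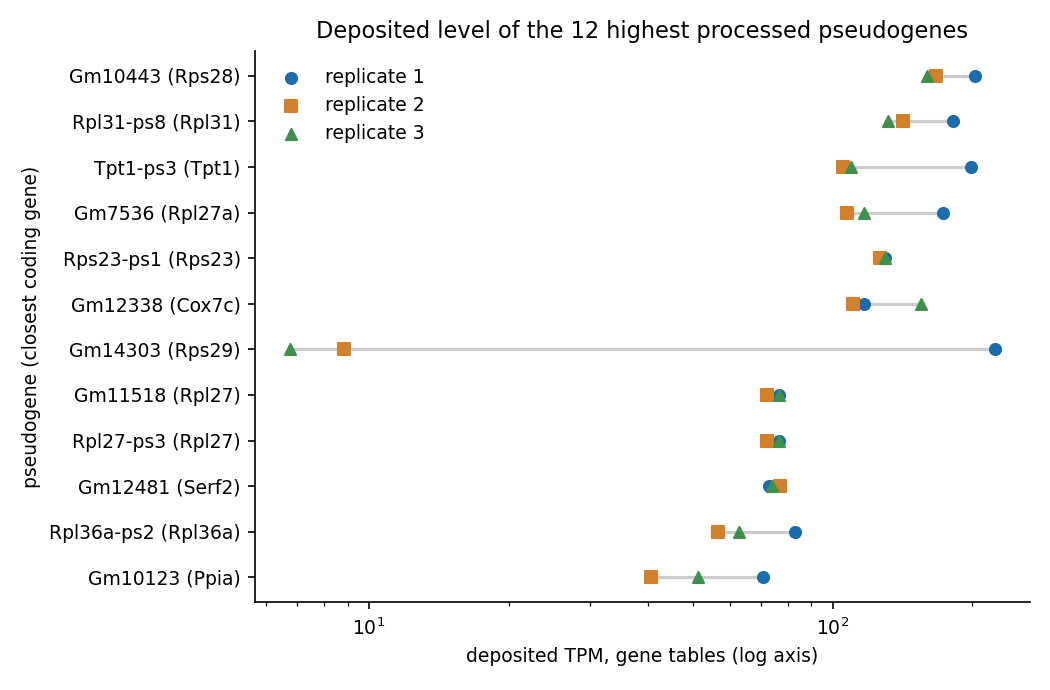
Deposited TPM of the 12 highest processed pseudogenes (horizontal log axis), 1 symbol per replicate, with the closest coding gene in brackets and a grey line from the lowest to the highest replicate. Gm14303 spans 6.77 to 224 TPM, while Rps23-ps1 lies between 127 and 130 TPM.

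Some of these levels rest on few reads over very short effective lengths. Gm14303, the copy of Rps29, was listed at 224, 8.84 and 6.77 TPM, on 63, 7.81 and 3.83 expected counts and effective lengths of 4.23, 8.66 and 7.44 bases, so that 1 count was worth 3.55 TPM in replicate 1. By contrast, Gm12250 had 12.5, 9.62 and 9.45 TPM on 854, 1037 and 750 counts, and 1 count was worth 0.0147 TPM in replicate 1. Gm14303 is thus high in replicate 1 alone, and on 63 counts. Rpl39-ps, at 151 bases the shortest member, was listed at 0, 2.62 and 4.12 TPM on 0, 1 and 1 counts, and is named for this after its values were seen. In all, 17 members are of 300 bases or fewer, and 6 had an effective length under 30 bases in every replicate.

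**Figure D3:**
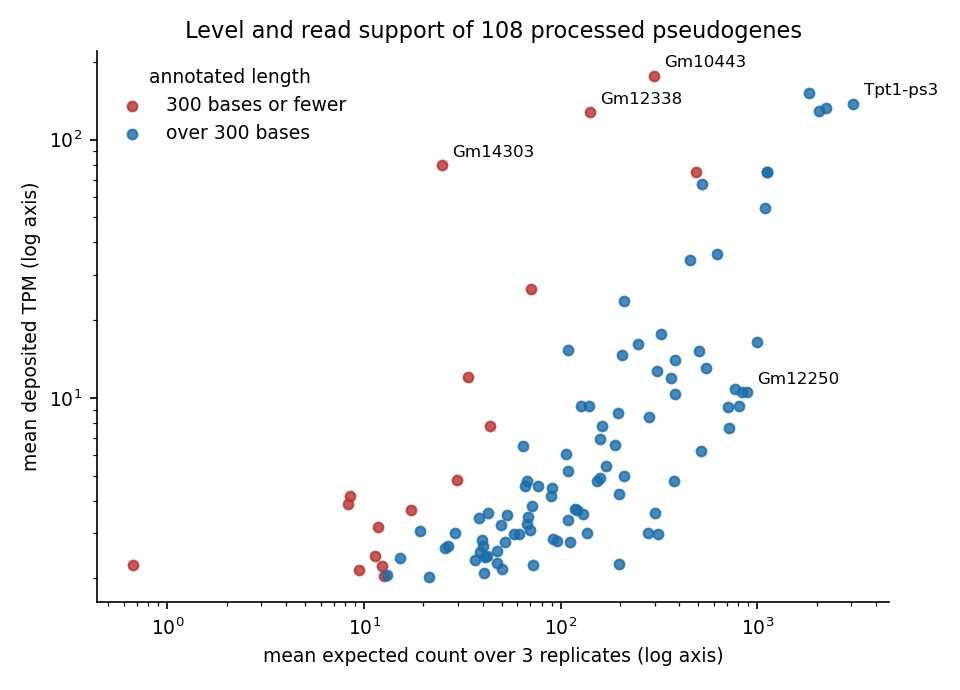
Mean deposited TPM (vertical log axis) against mean expected count over 3 replicates (horizontal log axis), 1 point per processed pseudogene, red for those of 300 bases or fewer and blue for longer ones. Gm14303, with a mean of 24.9 counts, stands at 79.7 TPM, while Gm12250, with a mean of 880 counts, stands at 10.5 TPM.

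The second quantification assigned the reads of the same libraries anew. To compare both, each was rescaled so that protein-coding genes sum to 1000000 per library, and ratios are log2 of second over first with 0.1 added to both. Before rescaling, protein-coding genes summed to 242347, 240603 and 262492 TPM in replicates 1, 2 and 3 of the first quantification. In the second they summed to 176146, 91632 and 83190 TPM. Rescaled TPM are therefore higher than deposited TPM and are not on the scale of the 2 TPM limit. The median over members of the log2 ratio was -2.50, -2.14 and -3.08 in replicates 1, 2 and 3. When each member's ratio was first averaged over the replicates, the median was -3.26, where all 8628 genes at 2 TPM or more had a median of 0.01. In the second quantification 67 of 108 members were at least 2-fold lower, where 2.09% of all genes at 2 TPM or more were, and 12 were at least 2-fold higher, where 0.811% of all genes were. Members were selected on a high value in the first quantification. The 83 processed pseudogenes chosen by the same limit on the second quantification had a median log2 ratio of 1.23. The 2 choices share 45 pseudogenes, which is 41.7% of the members and 54.2% of the 83.

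Members at a lower level in the first quantification were more often at least 2-fold lower in the second. That level also chose the members and enters the ratio, so this split is a description only. Of the 47 members at 5 TPM or more, 19 were at least 2-fold lower in the second quantification and 8 at least 2-fold higher, with a median log2 ratio of -0.34. Of the 61 members under 5 TPM, 48 were at least 2-fold lower, with a median of -4.18. The ratio's size also depended on the pseudocount, with a median of -2.42 when 1 was added in place of 0.1, and it was -1.82 on counts scaled by the protein-coding total.

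Summed over members, the second quantification gave 10192, 10395 and 8154 rescaled TPM in replicates 1, 2 and 3, against 9416, 7043 and 6781 in the first. It was higher in every library, and the ranges of both overlap. The 6 highest members of the second quantification, Tpt1-ps3, Gm10123, Gm7536, Rps23-ps1, Rpl28-ps1 and Rpl31-ps8, held 67.0% ± 1.2 of the members' sum there, and the same 6 held 31.8% ± 1.7 in the first quantification (SD, n = 3 each). These 6 were chosen on the second quantification. The 6 highest members of the first quantification held 44.6% ± 0.57 of the members' sum there. At the low end, 37 members stayed under 1 rescaled TPM in every replicate of the second quantification, 19 of them at 0.

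**Figure D4:**
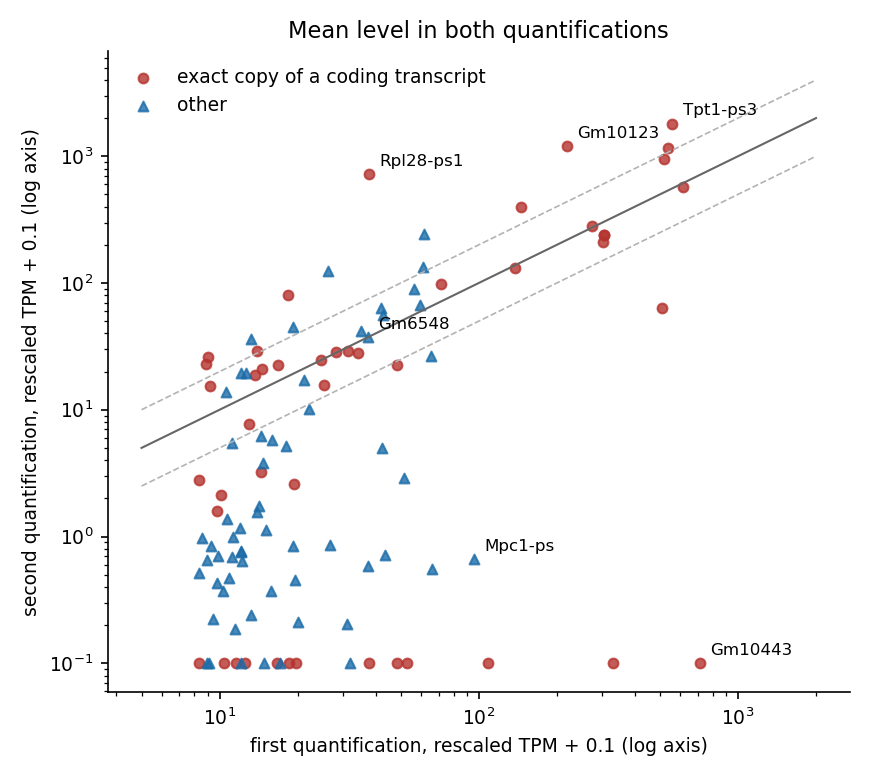
Mean rescaled TPM plus 0.1 of each processed pseudogene in the second quantification (vertical log axis) against the first (horizontal log axis), red circles for exact copies and blue triangles for the others. The solid line marks equal values and the dashed lines 2-fold differences, and 67 of 108 lie at least 2-fold below the solid line.

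Among the ribosomal protein copies, the largest class with 46 members, 34 were at least 2-fold lower and 4 at least 2-fold higher in the second quantification. Gm10443 was at 0 in all 3 replicates of the second quantification, against 839, 694 and 609 rescaled TPM in the first. Rpl28-ps1, a copy of the large-subunit gene Rpl28, showed the opposite, with 772, 804 and 600 rescaled TPM in the second quantification, against 65.2, 24.4 and 23.3 in the first. Its log2 ratio of 4.43 ± 0.77 (mean ± SD over 3 replicates, as for all ratios of single members) was the highest of all members. For Gm10443, as for every member at 0 in all or most replicates, the size of a ratio is set by the 0.1 added, and none is given. Both are exact copies with no unique 31-base word. Rps16-ps2 (Rps16) had 410, 450 and 337 rescaled TPM in the second quantification, against 154, 143 and 139 in the first. Gm4332 (Rps20) had 99.0, 197 and 77.9 in the second quantification, against 24.6, 24.6 and 29.1 in the first. For Rpl28-ps1, Rps16-ps2 and Gm4332 every value of the second quantification lay above every value of the first. Rps6-ps4, Rpl15-ps3 and Rps12l1, copies of Rps6, Rpl15 and Rps12, were at 0 throughout the second quantification, while their deposited TPM in the first quantification ran over the replicates from 11.7 to 14.8 for Rps6-ps4, from 7.01 to 17.3 for Rpl15-ps3 and from 5.86 to 12.3 for Rps12l1. Rpl31-ps8 hardly differed, with a log2 ratio of -0.10 ± 0.18.

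The 5 copies of translation factor genes went different ways. Tpt1-ps3 had 2184, 1786 and 1462 rescaled TPM in the second quantification, against 820, 438 and 418 in the first, without overlap. Gm6548, whose 36 differences from Eef1a1 leave 53.3% of its 31-base words unique, had 39.7, 39.3 and 33.2 rescaled TPM in the second quantification, against 39.98, 39.2 and 32.8 in the first. Its log2 ratio was 0.01 ± 0.01. Gm13456, another copy of Eef1a1 with 26.8% unique words, had a log2 ratio of -4.01 ± 0.38. Eif4a-ps4, a copy of the gene for the helicase eIF4A1, had -1.45 ± 0.71 and Gm2223 (Eif2s3x, an initiation factor subunit) had 0.76 ± 0.61.

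Copies of genes for respiratory chain and ATP synthase, cytoskeletal, glycolytic and folding proteins were few. Gm12338 (Cox7c) had 0, 126 and 62.7 rescaled TPM in the second quantification, against 483, 460 and 590 in the first. Ndufb4c, a copy of the complex I subunit gene Ndufb4, had 133, 139 and 121 in the second quantification, against 136, 140 and 135 in the first. Ndufb4c was also listed above its coding gene in both quantifications, with 77.8% of the sum of both genes in the second and 80.0% in the first. Gm10221, a copy of the ATP synthase gene Atp5l, was at 0 in the second quantification. Both cytoskeletal copies were at least 2-fold lower, Gm15899 (Actr3, part of the Arp2/3 complex) at 0 and Gm12715 (Actg1, an actin) with a log2 ratio of -6.05 ± 0.61. Of the glycolytic copies, Gm7336 (Gapdh) had -3.46 ± 1.22 and Gm5537 (Pgk1) -0.86 ± 1.07. Gm10123, a copy of the peptidyl-prolyl isomerase gene Ppia, had 1177, 1301 and 1141 rescaled TPM in the second quantification, against 293, 169 and 195 in the first.

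Of 7 copies of chromatin protein genes, 3 were at least 2-fold lower and 2 higher. Gm15387 (Hmgb1) had a log2 ratio of 1.15 ± 0.33 and Gm4739 (Hmgb2) of 1.23 ± 0.24. All 31-base words of Gm15387 also occur in Gm21596, and 96.6% of them in Hmgb1. H3f3a-ps2, a copy of a histone H3.3 gene, had 0, 0 and 0.813 rescaled TPM in the second quantification, and Gm14681 (Npm1) had 0, 0 and 0.364. Gm38158 (Hmga2), with 59.2% unique words, had 0.40 ± 0.20. Of 4 copies of ubiquitin pathway genes, Gm9762 (Ube2d2a) had 2.14 ± 0.18, Ube2n-ps1 (Ube2n) 0.46 ± 0.10 and Gm6361 (Ube2v2) 0.01 ± 0.28, while Gm10705 (Ube2l3) had 0, 0 and 2.63 rescaled TPM in the second quantification.

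The remaining 36 copies of other coding genes held 22 that were at least 2-fold lower and 2 that were higher. Mpc1-ps, a copy of the gene for the mitochondrial pyruvate carrier subunit Mpc1 with 1 differing base, had 0, 1.68 and 0 rescaled TPM in the second quantification, against 92.8, 98.8 and 95.2 in the first. Gm10095 (BC004004) was at 0 in every replicate of the second quantification, against 35.2, 36.2 and 23.5 rescaled TPM in the first. Morf4l1-ps1, shown above, had 1.16, 0.195 and 3.3e-07 in the second quantification, against 61.9, 66.6 and 69.5 in the first. Gm19253, the least similar member, is 94.1% identical to Mrps36 with 86.6% unique words, and had 279, 207 and 238 in the second quantification, against 57.0, 56.1 and 71.4 in the first. Gm12481 (Serf2), which overlaps an exon of Fam221b on the other strand, had 206, 243 and 186 in the second quantification, against 301, 321 and 282 in the first. Listed above their coding genes in both quantifications, by mean level, were Llph-ps2 (Llph), Mrpl23-ps1 (Mrpl23, a mitochondrial ribosomal protein), Gm19253 and Gm10557 (Cdh11). In replicate 2 of the first quantification 2 of these were below it. Gm19253 had 56.1 against 56.5 rescaled TPM there, and Mrpl23-ps1 had 43.6 against 50.6. Cdh11 itself was listed at only 0.02, 0.01 and 0.01 TPM, and held 27.2% of the words of Gm10557. Over all classes, 9 members were above their closest coding gene by mean level in the first quantification and 10 in the second.

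The 2 members without a coding match are processed pseudogenes by the annotation's type alone. No coding gene they could have been copied from was found, so the values below do not show them to be copies. Gm12250, annotated at chr11:58187739-58189012 on the plus strand, had 67.9, 51.7 and 49.3 rescaled TPM in the second quantification, against 51.7, 39.98 and 36.0 in the first, a log2 ratio of 0.41 ± 0.04. Gm17147 had 60.01, 27.4 and 19.95 in the second quantification, against 21.3, 10.2 and 7.81 in the first, a log2 ratio of 1.42 ± 0.07. The deposited posterior standard deviation of the count of Gm12250 was 0 in every replicate. A stretch of 90 bases of Gm12250, chr11:58188339-58188428, is shown as an example of sequence that no other annotated gene shares.
Gm12250: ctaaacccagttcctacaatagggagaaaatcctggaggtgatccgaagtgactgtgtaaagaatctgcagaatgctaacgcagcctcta

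The median ratio did not rise or fall steadily with the share of unique words. The median log2 ratio was -1.04 in the 54 members with no unique word (up to 4.43), -4.09 in the 35 with up to 10%, -5.59 in the 13 with 10% to 50% and 0.40 in the 6 above 50% (range -2.996 to 1.97). Of these 6, Gm14328 had the lowest ratio and was the only 1 at least 2-fold lower, while 2 were at least 2-fold higher. Across the 108 members, Spearman's rho between the share and the ratio was -0.08, as a description of genes that share libraries and families. It measures only a steady trend, and 54 members are tied with no unique word. Of the 47 exact copies, 22 were at least 2-fold lower, 18 within 2-fold and 7 at least 2-fold higher, and of the 61 other members these numbers were 45, 11 and 5. Exact copies had a median deposited level of 6.94 TPM and the other members of 3.67 TPM, so that the level moved with this split.

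At the median, the sum of a coding gene and its copies differed less between the quantifications than the copies did. The coding gene makes up most of that sum in many families, but not in all. The 106 members with a coding match belong to 97 coding genes. The log2 ratio of the sum of the coding gene and all its processed pseudogenes had a median of -0.08 (quartiles -0.14 and 0.12), and 93 of 97 such families lay within 2-fold. The coding genes alone had a median of -0.06 (quartiles -0.11 and 0.06), and 94 of 97 lay within 2-fold. In 32 of 97 families the sum lay nearer between the quantifications than the coding gene alone. A member's median share of the sum of itself and its coding gene was 0.417% in the second quantification and 5.37% in the first.

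**Figure D5:**
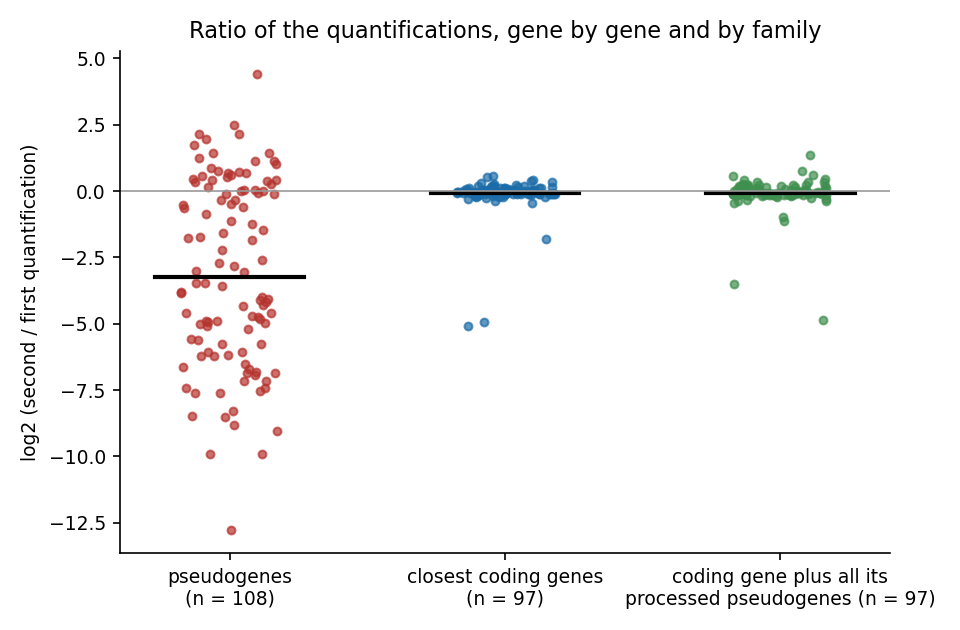
Log2 ratio of the second to the first quantification (vertical axis) for the 108 processed pseudogenes, their 97 closest coding genes, and the 97 sums of a coding gene and all its processed pseudogenes, 1 point each, with the median as a black bar. The medians are -3.26, -0.06 and -0.08.

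The sum lay beyond 2-fold in 4 families. Its log2 ratio was -4.84 for Rps12, -3.49 for Rpl12, -1.13 for Cdh11, whose member is Gm10557, and 1.36 for Mrps36, whose member is Gm19253. In the Rps12 and Rpl12 families, a copy outside the rule was listed above the coding gene in the second quantification. The Rps12 gene itself had 104, 63.4 and 60.1 rescaled TPM in the second quantification, against 2359, 2339 and 2094 in the first. Rps12-ps3, named as a pseudogene but typed as protein-coding, shares all 464 of its 31-base words with Rps12 and had 2720, 2670 and 2355 rescaled TPM in the second quantification, against 59.3, 42.1 and 38.9 in the first. The higher of Rps12 and Rps12-ps3 in one quantification was the lower in the other. Rpl12 had 21.9, 23.6 and 20.3 in the second quantification, against 798, 780 and 669 in the first, while Gm10275, typed as a transcribed processed pseudogene with 604 of 629 words in Rpl12, had 1724, 1611 and 1476 in the second quantification, against 257, 130 and 159 in the first. These were chosen after their values were seen.

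The expected counts come from the same tables as the level that chose the members, and a member that reached the limit through 1 high replicate had to differ between replicates. The numbers of members that differ are therefore a description. The expected counts of 61 of 104 tested members differed between the 3 replicates by more than counting error at an adjusted p under 0.05 (chi-square test on counts scaled with edgeR's TMM, Benjamini-Hochberg), where 50.1% of all 13494 genes tested did. With the authors' posterior variance added to the counting error it was 39 of 104, where 48.3% of all genes did. The highest replicate was at least 2 times the lowest in rescaled TPM for 27 of 108 members, where 2.57% of all genes at 2 TPM or more were. Of these 27, 9 were among the 17 members of 300 bases or fewer. Replicate 1 was the highest for 54 members, replicate 2 for 29 and replicate 3 for 25, and replicate 1 was the highest for 36.3% of all genes at 2 TPM or more. Without replicate 1, 31 of 99 tested members differed between the other two, where 27.5% of all genes did.

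The members with the largest spreads are given by their values, with no test. Rps10-ps2, a copy of Rps10 with 5 differing bases, had 8.77, 1.85 and 0.86 TPM on 144, 52.6 and 17.6 counts, and Gm14303, described above, had the widest spread. Gm10241, a copy of the modifier gene Sumo2, had 5.42, 1.46 and 0.41 TPM on 19.8, 11.8 and 2.24 counts. Rps10-ps2 and Gm10241 were above 2 TPM in replicate 1 only. Gm10221 had 5.88, 2.04 and 1.23 TPM on 28.3, 20.7 and 8.47 counts. Gm14681 (Npm1) was lowest in replicate 1, with 0.88, 2.13 and 4.08 TPM on 9.56, 42.4 and 57.4 counts. Gm4294 (Rpl15) had 1.20, 3.98 and 5.82 TPM on 29.1, 161 and 171 counts, with posterior standard deviations of 49.7, 87.5 and 58.9 counts. The authors' intervals for Gm4294 overlapped between all 3 replicates, running from 0.048 to 7.07 TPM, from 1.33 to 9.40 TPM and from 2.53 to 10.2 TPM. Rpl28-ps1 had 15.8, 5.86 and 6.12 TPM in the first quantification, with replicate 1 the highest.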

How the data were processed

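Total RNA-seq of the cytosolic fraction was analysed in 3 libraries of 1 group. The authors' deposited gene tables, called the first quantification here, hold expected counts, TPM and posterior standard deviations and interval bounds that were made from alignments to the transcriptome, per the file headers and the sample text files. The authors' deposited tables of estimated counts and TPM per transcript, called the second quantification, were made from the reads directly, and were summed per gene here. Both used mm10 and GENCODE annotation M21. Strandedness, aligner, quantifiers and versions: not given in the sources used here.

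Members and lists were chosen with earlier results of these data known. The named pseudogenes are those with the 12 highest TPM, the 8 largest and 8 smallest ratios between quantifications, the 8 largest spreads among those called between replicates, the 6 largest and 6 smallest shares of unique 31-mers, those nearest to the 2 TPM limit, and up to 6 per class of closest coding gene. Rpl39-ps, Rps12-ps3, Rpl12, Gm10275, Gm12895, Gm12896, Gm19220 and Vamp7-ps were chosen after their values were seen.

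The closest protein-coding transcript was found with BLAST 2.17.0 (megablast, word size 28, same strand, E-value limit 1e-10, highest bit score). Ties in bit score went to the coding gene with the higher mean TPM in the first quantification. Levels given for closest coding genes depend on this choice where ties occurred. A 31-mer was called unique if no other gene's M21 transcript held it on either strand. Replicates were compared with a chi-square test of rounded expected counts against TMM library sizes (edgeR 4.0.16 in R 4.3.3, DESeq2 1.42.0 for other size factors) where counts summed to 30 or more, adjusted by Benjamini-Hochberg. The search for unique 31-mers, run on a simulated sequence, gave back the change it was made with. The chi-square test, run on simulated counts, recovered most of the 2-fold changes put in. Those counts held counting error only, without uncertainty in how reads were divided, so they do not cover that part of the members' spread. Python 3.11.15, pandas 2.3.3 and numpy 2.4.6 were used. No sequences of 3 members on 1 chromosome are shown. The alternatives varied the limit, pseudocount, scaling, quantification, k-mer length, search and replicates.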

Additional observations from a re-analysis of the deposited data

How the results depend on the processing

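No paired analysis was possible because the series holds 1 group. The number of members was 153 and 47 with limits of 1 and 5 TPM, 392 with the authors' posterior mean TPM, and 105 to 111 with 1 replicate left out. The median log2 ratio over members kept its sign in all alternatives but one: it was 1.23 when the pseudogenes were chosen on the second quantification. It was -2.42 with a pseudocount of 1, -1.82 on scaled counts, -0.34 at 5 TPM or more and -3.22 to -2.51 with 1 replicate left out, and the count at least 2-fold lower was 19 at 5 TPM or more, and 64 to 70 with 1 replicate left out. Over families the median was -1.25 on deposited TPM without rescaling and -0.0861 to -0.0632 with 1 replicate left out. Members differing between replicates numbered 39 of 104 with the posterior variance, where 6516 of 13494 genes did. Without replicate 1 it was 31 of 99 members and 3514 of 12785 genes. Without replicate 2 it was 41 of 98 members and 5358 of 12682 genes. Without replicate 3 it was 47 of 100 members and 4586 of 12914 genes. On the counts of the second quantification it was 45 of 57 members and 9350 of 15861 genes. The median share of unique words was 0% for 21-mers and 0.892% for 51-mers. Restricting to members over 300 bases, chosen after seeing the data, gave 54 of 91 at least 2-fold lower and a median of -3.46. For 35 of 108 members the authors' interval spans 2-fold or more in every replicate, which limits what the level of a single copy can show.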

Other observations

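Applying the 2 TPM limit to the second quantification, put on the scale of the gene tables, gave 38 processed pseudogenes that are not members, 18 of them listed at 0 in every replicate of the first quantification. None of those 18 is an exact copy of a coding transcript. The highest were Gm12895 and Gm12896, a pair of 226-base pseudogenes at chr4:122455210-122455435 and chr4:122122847-122123072, both on the plus strand, that share 194 of 196 31-base words with each other and none with another annotated gene. Each held 6.78%, 21.7% and 27.4% of all TPM of the second quantification in replicates 1, 2 and 3, on 302658, 3659500 and at least 4165710 estimated counts, and was listed at 0 in every replicate of the first. The pair enters the total that sets the deposited TPM of every other gene in the second quantification. The letters of Gm12895 are shown because the pair held more TPM than any other processed pseudogene in either quantification.
Gm12895: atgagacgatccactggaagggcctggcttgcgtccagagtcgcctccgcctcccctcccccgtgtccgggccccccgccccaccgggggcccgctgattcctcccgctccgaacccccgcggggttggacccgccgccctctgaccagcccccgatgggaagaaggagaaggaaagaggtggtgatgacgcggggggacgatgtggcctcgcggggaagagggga

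Gm19220 on chromosome 12 had 571, 245 and 231 rescaled TPM in the second quantification and was listed at 0 in the first, and it shares 31-base words with Gm26822, Grip2 and Zrsr1. Vamp7-ps on chromosome 2 had 52.6, 44.6 and 55.4 rescaled TPM in the second quantification, shares no 31-base word with another annotated gene, and was also listed at 0 in the first. Gm8203, an exact copy of the histone gene H2afz, had 36.2, 52.2 and 21.3 rescaled TPM in the second quantification and 0, 1.66 and 1.41 in the first. These pseudogenes were chosen after their values were seen.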
